A study of Mus musculus with 12 samples.

Results

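The genes described here are 8 non-neuronal genes, among them genes of secreted proteins and of transporters. They were selected on their measured P5 values: all 3 in cKO retinal pigment epithelium (RPE) lay above all 3 in WT RPE. They are Ism2, Otogl, Fcor, Aard, Ahcyl2, Aifm3, Slc31a1 and Slc13a5. They were found by symbol, 8 of 8, in a table of 13942 genes. RNA from mouse RPE (strain C57BL/6J) was sequenced in 12 libraries, 3 each of Sox9.cKO at postnatal day 5 (P5), WT at P5, Sox9.cKO at embryonic stage E15.5 and WT at E15.5. The cKO libraries are titled kd and, by their label, carry a conditional deletion of Sox9. The sources used here do not give the Cre driver, the deleted exons, the number of animals per library or the way RPE was isolated, so cKO is used throughout as the label of a library. No label says that replicates came from separate animals, so p-values measure only the spread between these samples.

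The RPE is the pigmented epithelium behind the photoreceptors. It renews retinoids, takes up shed outer segments, and moves ions, metals and metabolites between the choroidal blood and the retina, with SOX9 among its transcription factors. The 8 genes belong to no single pathway. Ism2 (isthmin 2) encodes a secreted protein with a thrombospondin repeat, and Otogl (otogelin-like) a large secreted glycoprotein of the acellular membranes of the inner ear. Slc31a1 encodes CTR1, the high-affinity copper importer of the plasma membrane, and Slc13a5 encodes NaCT, which brings citrate into the cell with sodium. Ahcyl2 encodes a relative of adenosylhomocysteine hydrolase that binds the inositol trisphosphate receptor and sodium bicarbonate cotransporters. Aifm3 encodes a mitochondrial relative of apoptosis-inducing factor, and Fcor a corepressor of the transcription factor FOXO1, studied in mouse fat.

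In GENCODE M21 (GRCm38) the 8 genes lay on 8 different chromosomes. Ism2 is at chromosome 12, 87278638 to 87299705, and Otogl at chromosome 10, 107760531 to 107912134. Fcor is at chromosome 8, 3671188 to 3672362, and Aard at chromosome 15, 52040107 to 52045722. Ahcyl2 is at chromosome 6, 29768011 to 29912310, and Aifm3 at chromosome 16, 17489611 to 17507485. Slc31a1 is at chromosome 4, 62360727 to 62391769, and Slc13a5 at chromosome 11, 72241989 to 72267222. All 8 are protein-coding, with a summed exon length from 392 bases in Fcor to 18255 bases in Ahcyl2. RefSeq promoter entries (GRCm38.p6) were matched for 6 of the 8, with 9 start sites in all. Otogl and Aard had no entry. The 250 bases before 4 of these starts are printed next because these members were high together in the same 3 libraries. Ism2 stood at or near the floor outside P5 cKO, Slc31a1 stood far above the floor in every library, and the windows of Ahcyl2 and Slc13a5 (each the second start by coordinate) were those that held a searched motif, given in capitals.

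Ism2, chr12:87299706-87299955, minus strand: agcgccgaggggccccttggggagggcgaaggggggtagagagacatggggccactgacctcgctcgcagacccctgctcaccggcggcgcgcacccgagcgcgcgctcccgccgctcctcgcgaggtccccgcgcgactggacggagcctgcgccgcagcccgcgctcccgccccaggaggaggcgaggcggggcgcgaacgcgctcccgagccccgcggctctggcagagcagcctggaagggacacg
Slc31a1, chr4:62360451-62360700, plus strand: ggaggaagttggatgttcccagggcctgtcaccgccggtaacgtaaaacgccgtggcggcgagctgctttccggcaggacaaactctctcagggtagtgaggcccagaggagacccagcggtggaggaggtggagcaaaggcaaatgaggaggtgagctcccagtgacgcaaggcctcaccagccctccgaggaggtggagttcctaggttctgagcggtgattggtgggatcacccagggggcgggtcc
Ahcyl2, chr6:29853491-29853740, plus strand: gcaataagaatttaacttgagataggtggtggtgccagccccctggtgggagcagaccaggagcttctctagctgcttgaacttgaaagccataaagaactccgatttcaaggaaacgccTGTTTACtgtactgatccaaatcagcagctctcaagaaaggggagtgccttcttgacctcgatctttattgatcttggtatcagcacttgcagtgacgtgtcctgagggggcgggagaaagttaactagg
Slc13a5, chr11:72267162-72267411, minus strand: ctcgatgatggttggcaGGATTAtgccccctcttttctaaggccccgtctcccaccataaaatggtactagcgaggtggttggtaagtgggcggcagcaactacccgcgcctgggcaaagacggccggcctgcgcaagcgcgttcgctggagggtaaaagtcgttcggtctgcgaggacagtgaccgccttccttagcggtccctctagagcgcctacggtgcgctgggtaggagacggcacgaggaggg

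Neither SOX motif searched, ACAATG or ACAAAG on either strand, was found in any of the 9 windows. ACAATG stood in 10.7% and ACAAAG in 16.5% of all 32817 promoter windows of this length. The FOXO motif TGTTTAC stood once, in the second Ahcyl2 window, 130 bases before the start, against 3.16% of all windows. The OTX motif TAATCC stood once, as its reverse complement GGATTA in the second Slc13a5 window, 233 bases before the start, against 6.25% of all windows. The MITF motifs CACGTG (6.02% of all windows) and CATGTG (12.3%) were found in none of the 9. These are matches of letters in short windows and say nothing of binding.

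Values are the deposited signal: gene counts that were quantile-normalised over the libraries, with a floor of 50 under which nothing can be told, so the depth behind a value is unknown. At P5 the libraries of a group resembled each other less than at E15.5: pairs of libraries correlated over all genes with 0.916 to 0.978 in P5 cKO and 0.85 to 0.968 in P5 WT, against 0.986 to 0.988 in E15.5 cKO and 0.991 to 0.994 in E15.5 WT. WT replicate 3 at P5 had the highest photoreceptor marker values of the 12. Of 22 RPE markers 21 were in the table, with a summed value of 160277 to 244454 in P5 cKO and 135424 to 260918 in P5 WT. Their mean log2 value was 10.91, 11.13 and 11.45 in P5 cKO replicates 1, 2 and 3 against 12.03, 12.14 and 10.86 in the WT replicates. Of the 21, 0 rose and 2 fell at P5 by limma (0.0444% of all tested genes fell): Rgr, a retinal G protein-coupled receptor, and Rpe65, the retinoid isomerase, which was at the floor in each P5 cKO library and in none of P5 WT. In 3 of the 21 (Rlbp1 beside these) every P5 cKO value was under every P5 WT value. The same held for 5 of 14 glia markers, a list that also holds Rlbp1, with 0 called. The share of all tested genes in that order was not counted. At an unadjusted p under 0.05 by limma, 3 of the 21 and 6 of the 14 were lower, against 2.99% of all tested genes. By the same test 0 and 2 were higher, against 4.69%. The single gene called at E15.5 was the RPE marker Ttr, the retinol carrier transthyretin, which fell in cKO. The gene count of Sox9 itself went against the label at P5, at 2135.7, 2383.8 and 2928 in cKO against 963.7, 1499.5 and 1111.4 in WT. This rise was called by limma (log2 fold change 1.07 ± 0.17, SE, adjusted p = 0.0316). At E15.5 the Sox9 count was 1034, 990 and 1006.2 in cKO and 1156.2, 1060.3 and 931.6 in WT. A count over the whole gene checks no deletion whose exons are not known, and every direction below is between the libraries labelled cKO and those labelled WT.

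The P5 difference chose these genes, so it is described here and not tested. All 3 cKO libraries lay above all 3 WT libraries in 3.45% of the 13523 genes tested, and in 8 of 8 members by the rule. The median log2 difference of the 8 genes was 1.74, against -0.02 over all tested genes, a direction that the choice fixes.

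Among the secreted proteins, Ism2 stood at 187.6, 237.1 and 260.7 in P5 cKO against 58.4, 53.2 and 50 in P5 WT. The WT libraries were at the floor or next to it, and the mean was 4.24-fold higher in cKO. Otogl stood at 245.7, 241.7 and 258.7 in P5 cKO, the tightest group of the 8 genes (248.7 ± 8.89, SD, n = 3), against 84.6, 50 and 50 in P5 WT. Its ratio of means was 4.04, and WT replicate 1 was the only P5 WT library above the floor. In bulk RNA, fewer cells of a type and less RNA per cell cannot be told apart, for these genes and for those that follow.

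Of the carriers, Slc31a1 stood at 3290.3, 3831.6 and 4960.4 in P5 cKO against 1478.8, 1574.6 and 1069.5 in P5 WT, 2.93-fold higher by the means (4027 ± 852 and 1374 ± 268, SD, n = 3 each). It was far above the floor in every library, so its ratio is not bounded by it. An exon of Slc31a1 overlaps Cdc26 on the opposite strand, and with no strand setting known the reads there cannot be told apart. Cdc26 itself stood at 671 ± 35.7 in P5 cKO and 667 ± 53.1 in P5 WT (SD, n = 3 each), a log2 fold change of 0.01 ± 0.11 (SE). Slc13a5 stood at 103.9, 188.2 and 217.4 in P5 cKO and at 50, the floor, in each P5 WT library, at least 3.40-fold higher. Transcripts on the opposite strand also overlap an exon of Slc13a5 (1700051A21Rik) and of Ahcyl2 (4930528J11Rik), and were not analysed here.

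Of the relatives of adenosylhomocysteine hydrolase and apoptosis-inducing factor, Ahcyl2 stood at 877.2, 1181.6 and 1334.9 in P5 cKO against 538.0, 603.1 and 384.7 in P5 WT, 2.22-fold higher. This was the lowest ratio of the 8 genes, in a gene well above the floor. Aifm3 stood at 90.6, 142.4 and 138.3 in P5 cKO against 50, 54.0 and 50 in P5 WT. Its ratio of means was 2.41, with 2 of 3 WT libraries at the floor.

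Fcor stood at 204.4, 341.2 and 296.9 in P5 cKO against 85.6, 108.4 and 50.1 in P5 WT, 3.45-fold higher. Aard, an alanine- and arginine-rich protein, stood at 113.5, 215.9 and 286.2 in P5 cKO against 59.4, 53.4 and 50 in P5 WT, 3.78-fold higher. Its cKO libraries spread the most, with replicate 3 at 2.52 times replicate 1. Replicate 1 was the lowest P5 cKO library in 7 of the 8 genes, all but Otogl.

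The margin between the groups was smallest for Ahcyl2, whose lowest P5 cKO value was 1.45 times its highest P5 WT value, then for Aifm3 (1.68 times) and Fcor (1.89 times). It was 3.21 times for Ism2, 2.86 times for Otogl, 2.09 times for Slc31a1 and 1.91 times for Aard. With every WT library at the floor, it was at least 2.08 times for Slc13a5. Just outside the rule among the related genes described below was Fh1, the fumarase of the citric acid cycle, whose lowest P5 cKO value (804.6) was 0.993 times its highest P5 WT value (810.2).

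**Figure D1:**
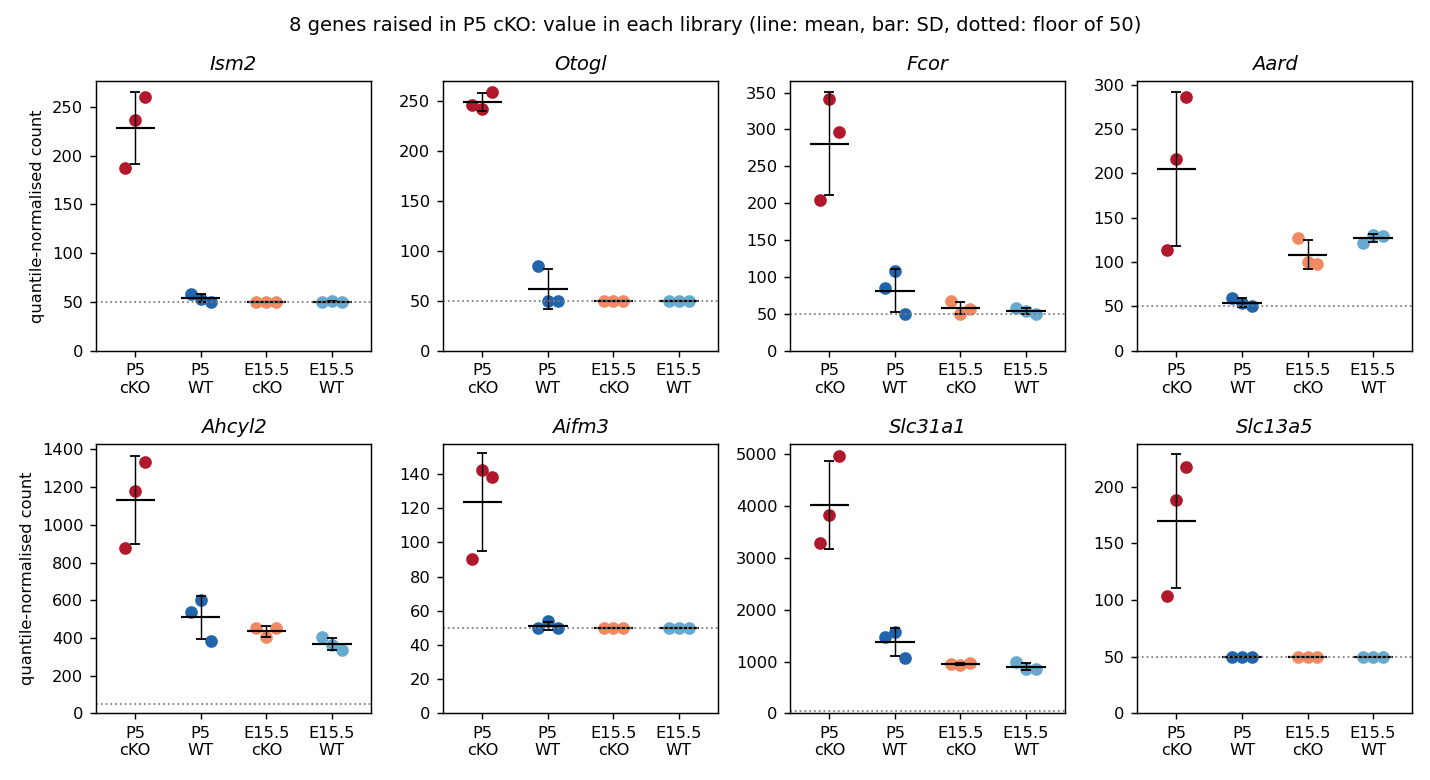
Quantile-normalised count of each of the 8 genes in each of the 12 libraries, by group on the x axis. Points are libraries, the horizontal line is the group mean, bars are the SD and the dotted line is the floor of 50. The P5 cKO points lie above the P5 WT points in every panel, and Aard alone lies above the floor in all E15.5 libraries and near it in P5 WT.

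At E15.5, in libraries that played no part in choosing the genes, none of the 8 differed between genotypes by limma. Of 13523 genes 1 was called there (0.00739%). No member had an unadjusted p under 0.05, against 0.362% of all tested genes. Each gene had 1 spread in the fit, shared by both ages. The median SD of log2 values was 0.227 and 0.31 in P5 cKO and WT, against 0.113 and 0.103 in E15.5 cKO and WT. The fit was therefore less able to see a small difference at E15.5. Otogl, Aifm3 and Slc13a5 were at the floor in all 6 libraries, and Ism2 in all but WT replicate 2, at 51.3, so no fold is given for these 4. A difference below the floor was not detectable in them.

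The other 4 genes could be compared at E15.5. Slc31a1 stood at 963.4, 936.8 and 964.8 in cKO against 986.7, 859.0 and 862.0 in WT, with a log2 fold change of 0.08 ± 0.17 (SE, limma, adjusted p = 1, exact permutation p = 0.4). Ahcyl2 stood at 454.2, 403.4 and 451.0 in cKO against 403.6, 363.3 and 338.8 in WT, with a log2 fold change of 0.24 ± 0.19 (SE, limma, adjusted p = 1, exact permutation p = 0.2). The groups of Ahcyl2 met at 403.4 in cKO and 403.6 in WT.

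Aard stood at 126.8, 100.3 and 98.1 in cKO against 121.6, 130.3 and 129.0 in WT at E15.5. Its log2 fold change was -0.235 ± 0.28 (SE, limma, adjusted p = 1, exact permutation p = 0.2), opposite in sign to P5. Fcor, close to the floor, stood at 66.9, 50 and 56.5 in cKO against 58.0, 53.8 and 50 in WT, with a log2 fold change of 0.09 ± 0.28 (SE, limma, adjusted p = 1, exact permutation p = 0.7). The smallest exact permutation p for 3 libraries against 3, two-sided, is 0.1. In a fit of the 6 E15.5 libraries alone the fold changes were the same with smaller SEs. These were 0.063 in Slc31a1, 0.09 in Ahcyl2, 0.111 in Aard and 0.12 in Fcor, and none of these genes was called.

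The change with age is given as a description, since the P5 libraries chose the genes. Where E15.5 and P5 WT values lie at the floor, a high P5 cKO value alone makes the average over genotypes higher at P5, so neither the average (57.3% of all genes called by limma) nor the interaction of genotype and age (0.0592% called) was read as a test of the members. In cKO the P5 mean was 1.89 times the E15.5 mean in Aard, 2.59 times in Ahcyl2, 4.22 times in Slc31a1 and 4.86 times in Fcor. With all 3 E15.5 cKO libraries at the floor, it was at least 4.57 times in Ism2, 4.97 times in Otogl, 2.48 times in Aifm3 and 3.40 times in Slc13a5. In WT the P5 mean was 1.52 times the E15.5 mean in Slc31a1, 1.51 times in Fcor, 1.38 times in Ahcyl2 and 0.427 times in Aard. In Ism2, Otogl, Aifm3 and Slc13a5 most or all of the 6 WT libraries were at the floor or next to it, so a change with age in WT could not be seen.

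Aard therefore differed in pattern from the other 7. Its P5 WT libraries (59.4, 53.4 and 50) lay below its 3 E15.5 WT libraries (121.6, 130.3 and 129.0), whereas of its P5 cKO libraries replicate 1 (113.5) lay within the range of E15.5 cKO (98.1 to 126.8) and replicates 2 and 3 lay above it. Across the 12 libraries the log2 values of Aard had a Pearson r of 0.688 with the mean of all 8 genes, against 0.968 to 0.993 for the other 7. These r values describe 12 libraries that fall into 2 ages, and each gene is part of the mean.

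Lens and skeletal muscle signal also differed between the P5 libraries. Of 27 lens markers 19 were in the table, with a summed value of 15969, 12417 and 18439 in P5 cKO replicates 1, 2 and 3 against 6479, 12432 and 3707 in the WT replicates. In WT replicate 3, 13 of the 19 were at the floor, against 0 or 1 in each other P5 library. The median log2 fold change of the 19 at P5 was 1.74, as in the members, with 17 positive and 0 called by limma. At an unadjusted p under 0.05 by limma, 11 were higher and 0 lower, against 4.69% and 2.99% of all tested genes. All cKO libraries lay above all WT libraries in 1 of the 19, against 3.45% of all tested genes. Cryaa, the alpha-A crystallin of lens fibres, stood at 3310.5, 2017.2 and 4118.1 in P5 cKO against 1019.7, 2293.0 and 106.7 in P5 WT. Cryba1, a beta crystallin, stood at 1373.4, 884.1 and 1685.9 in P5 cKO against 342.2, 970.5 and 50 in P5 WT. Thus cKO replicate 2 held slightly less lens signal than WT replicate 2, with a mean log2 value of the 19 markers of 8.37 in cKO replicate 2 against 8.62 in WT replicate 2.

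The rule fixes that each member is higher in every P5 cKO library than in every P5 WT library, so only the sizes between single libraries are given, as a description that supports nothing. Between cKO replicate 2 and WT replicate 2 the ratio ran from 1.96 in Ahcyl2 to 4.83 in Otogl, with a median of 3.46. With a term for lens signal in the fit, the P5 log2 difference was 1.99 in Ism2, 2.05 in Otogl, 1.67 in Aard, 1.18 in Aifm3 and 1.64 in Slc13a5, against 2.05, 2.04, 1.80, 1.23 and 1.68 for these 5 genes without it. It was lower for the other 3: 1.26 against 1.81 in Fcor, 1.2 against 1.55 in Slc31a1 and 0.78 against 1.16 in Ahcyl2. With library weights and no lens term, these 3 were also lower, at 1.43, 1.24 and 0.86. The other 5 then ran from 1.17 in Aifm3 to 2.21 in Otogl.

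Of 28 skeletal muscle markers 26 were in the table, with a summed value of 109681, 98838 and 45426 in P5 cKO replicates 1, 2 and 3 against 100898, 32900 and 21838 in the WT replicates. All 26 had a positive log2 fold change at P5 (median 0.97), with 0 called by limma. At an unadjusted p under 0.05 by limma, 3 were higher and 0 lower, against 4.69% and 2.99% of all tested genes. Acta1, skeletal muscle actin, stood at 33276.7, 24109.8 and 13438.1 in P5 cKO against 32144.9, 9174.8 and 7142.2 in P5 WT. Here WT replicate 1 held more muscle signal than cKO replicate 3, with a mean log2 value of 9.60 in cKO replicate 3 against 10.70 in WT replicate 1. Between these libraries the ratio of the members, whose direction the rule fixes, ran from 2.48 in Ahcyl2 to 4.82 in Aard.

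At E15.5 the muscle markers summed to 53470 to 85315 in cKO and 54033 to 99243 in WT. With a term for muscle signal the P5 log2 difference of Otogl was 1.82 in place of 2.04, and those of the other 7 genes ran from 1.14 in Ahcyl2 to 2.05 in Ism2.

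Photoreceptor markers (24 of 26 in the table) summed to 4567, 68695 and 31520 in P5 cKO replicates 1, 2 and 3 against 4645, 13746 and 136548 in the WT replicates. The first replicates of both genotypes were alike in this, and the ratio of the members between them, whose direction the rule fixes, ran from 1.63 in Ahcyl2 to 3.21 in Ism2. With a term for photoreceptor signal the P5 log2 differences of the 8 genes ran from 1.16 in Ahcyl2 to 2.05 in Ism2 and Otogl. What part other tissues play in the level of the members was not tested beyond these values.

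**Figure D2:**
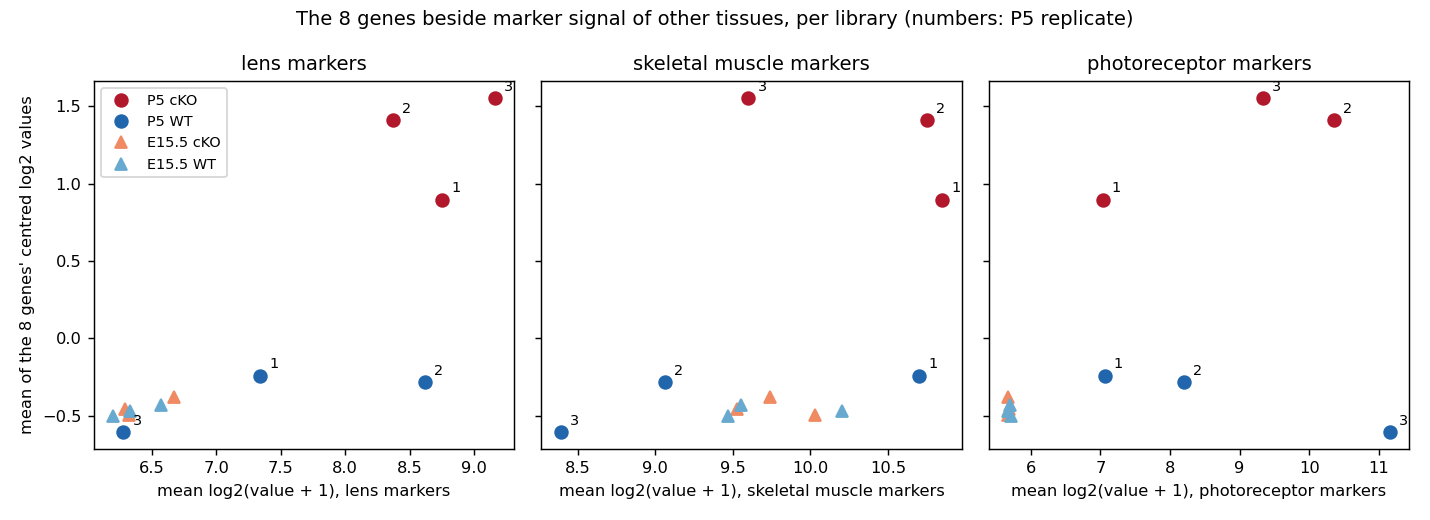
Mean of the centred log2 values of the 8 genes (y axis) against the mean log2(value + 1) of lens, skeletal muscle and photoreceptor markers (x axes) in each of the 12 libraries, with P5 replicates numbered. On the lens axis cKO replicate 2 (8.37) lies left of WT replicate 2 (8.62), and on the muscle axis cKO replicate 3 (9.60) lies left of WT replicate 1 (10.70). The rule fixes that the P5 cKO points stand above the P5 WT points.

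**Figure D3:**
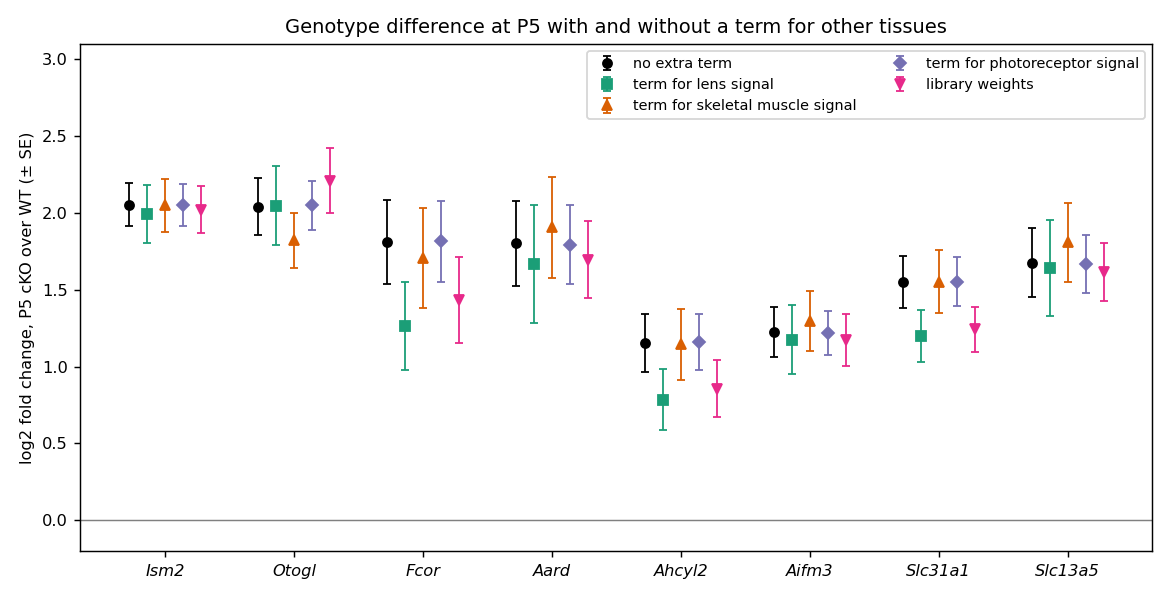
Log2 fold change of each gene at P5, cKO over WT, with its SE, in the model without further terms, with a term for lens, skeletal muscle or photoreceptor signal, and with library weights. The genes were chosen for a positive difference. The term for lens signal lowers Fcor, Ahcyl2 and Slc31a1, and so do the library weights.

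The paralogues of the members, read at P5 as genes that the rule did not choose, gave 0 calls by limma. Of 11 listed, 8 were in the table and tested. The limma calls at P5 made up 0.244% of all tested genes, 0.2% as rises and 0.0444% as falls. At an unadjusted p under 0.05, 4 of the 8 paralogues were higher and 0 lower in cKO, against 4.69% of all tested genes higher and 2.99% lower (7.68% together). In 4 of the 8, all cKO libraries lay above all WT libraries, against 3.45% of all tested genes.

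Slc13a3, a sodium-coupled carrier of dicarboxylates, had the largest difference, at 1119.0, 1193.8 and 1459.0 in P5 cKO against 692.0, 711.5 and 221.3 in P5 WT. This difference of 1.39 ± 0.36 (log2 fold change and SE) was not called by limma (adjusted p = 0.274). The other 3 were Ahcy, the adenosylhomocysteine hydrolase itself (0.33 ± 0.13, log2 fold change and SE), Ahcyl1, which encodes IRBIT (0.27 ± 0.09), and Aifm1, apoptosis-inducing factor (0.24 ± 0.10). Ahcyl1 stood at 2611.2, 2659.3 and 2987.0 in P5 cKO against 2191.0, 2420.5 and 2240.5 in P5 WT.

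The remaining paralogues showed other values. Ism1 was at the floor in all 6 P5 libraries. Slc31a2, the low-affinity relative of CTR1, overlapped between groups at 262.5, 230.0 and 253.9 in P5 cKO against 222.5, 286.3 and 178.7 in P5 WT. Aifm2, which encodes the oxidoreductase FSP1, differed by -0.09 ± 0.27 and Slc13a4, a sulphate carrier, by -0.68 ± 0.36 (log2 fold change and SE). Otog, Slc13a1 and Slc13a2 were not analysed here.

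**Figure D4:**
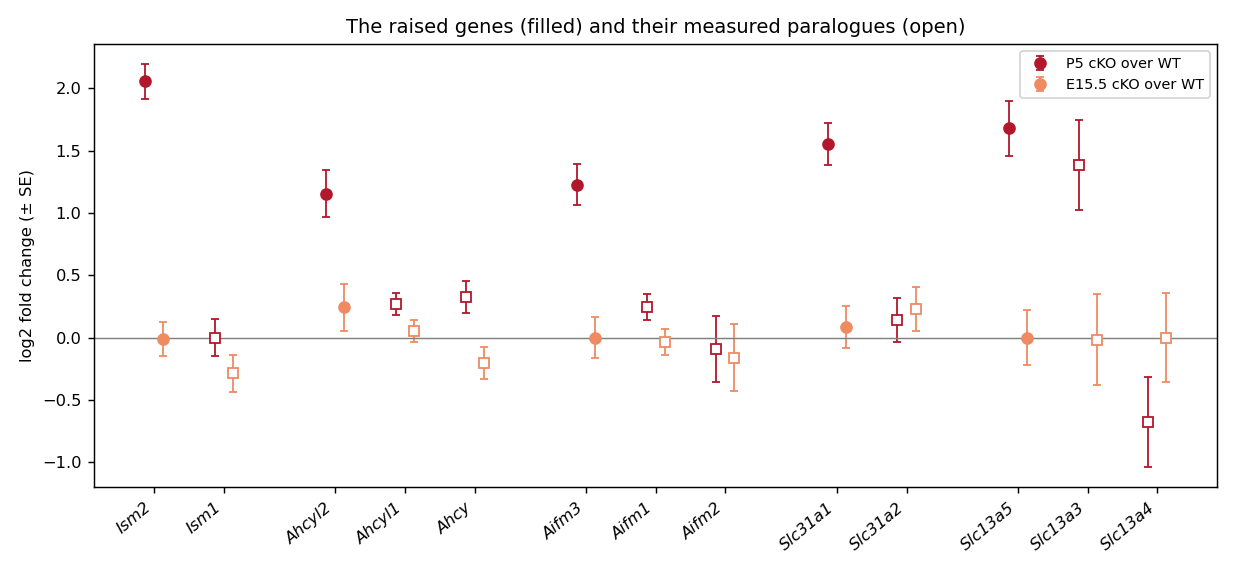
Log2 fold change with SE, cKO over WT, at P5 (dark red) and E15.5 (orange) for 5 of the raised genes (filled circles) and their 8 measured paralogues (open squares). Slc13a3 (1.39 at P5) comes closest to its relative, and the other paralogues lie between -0.68 and 0.33 at P5.

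Genes that share a process with the members were followed in 7 lists, and 1 gene passed at P5. The counts at an unadjusted p under 0.05 that follow stand against 4.69% of all tested genes higher and 2.99% lower in cKO. The gene that passed was Rspo4, a secreted R-spondin with a thrombospondin repeat that enhances Wnt signalling. Rspo4 stood at 119.9, 199.5 and 227.2 in P5 cKO and at 50, the floor, in each P5 WT library, at least 3.64-fold higher (log2 fold change 1.79 ± 0.22, SE, limma, adjusted p = 0.00729). Outside P5 cKO it was above the floor in 1 E15.5 cKO library alone (67.7), so it entered the test through the group where it was high. The call was lost in the 6 P5 libraries alone (1.79 ± 0.25, adjusted p = 0.796 by limma, in a range of 0.000364 to 0.796 over all its alternatives) and with a term for lens signal (1.78, adjusted p = 0.0576). A pseudocount of 50 lowered its log2 fold change to 1.19.

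Of the 18 tested secreted proteins with thrombospondin repeats or mucin-like domains, and their receptors, 1 rose, 0 fell and 17 were not called (median log2 fold change -0.03, against -0.02 over all tested genes). Rspo4 was among 4 that were higher at an unadjusted p under 0.05, and 1 was lower (4.69% and 2.99% of all tested genes). Thbs4, a thrombospondin of tendon and muscle matrix, stood at 11578.8, 10928.7 and 10557.3 in P5 cKO against 7934.9, 6315.0 and 5737.7 in P5 WT and did not pass (0.74 ± 0.25, log2 fold change and SE). Rspo2 had a value of -1.0 ± 0.45 and the matrix protein Spon1 one of 0.75 ± 0.28, without a call.

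Of 29 copper genes 0 were called by limma (median 0.07), with 3 higher and 2 lower at an unadjusted p under 0.05 (7.68% of all genes). The metal-binding metallothioneins Mt2 (1.21 ± 0.40), Mt1 (1.08 ± 0.38) and Mt3 (0.88 ± 0.48) had the largest log2 fold changes, followed by the extracellular superoxide dismutase Sod3 (0.85 ± 0.36). Mt1 overlapped between groups, at 2485.1, 6721.9 and 4915.5 in P5 cKO against 2486.8, 2953.7 and 1173.9 in P5 WT. The copper exporters Atp7a (0.17 ± 0.53) and Atp7b (-0.14 ± 0.25) and the copper chaperone Atox1 (0.26 ± 0.22) did not pass.

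Of 31 genes of citrate and cytosolic acetyl-CoA 0 were called (median 0.04), with 3 higher and 1 lower at an unadjusted p under 0.05 (7.68% of all genes). Beside Slc13a3, the mitochondrial citrate carrier Slc25a1 differed by 0.15 ± 0.19 and the ATP citrate lyase Acly, which splits cytosolic citrate, by -0.37 ± 0.27 (log2 fold change and SE). Acly stood at 3989.3 in WT replicate 3, where photoreceptor markers were highest, and between 1619.8 and 1880.3 in the other 5 P5 libraries. The largest other values were those of the desaturase Scd1 (-0.47 ± 0.41) and the succinyl-CoA ligase subunit Suclg1 (0.36 ± 0.11).

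Of 18 genes of the methionine and adenosylhomocysteine cycle 0 were called (median -0.01), with 2 higher and 0 lower at an unadjusted p under 0.05. These were Ahcy and Ahcyl1, given above, and the methyl-group enzymes Shmt1 (0.28 ± 0.20) and Mtr (-0.28 ± 0.24) did not pass. Of 22 partners of AHCYL proteins in ion transport 0 were called (median 0.03), with 3 higher and 2 lower at an unadjusted p under 0.05 (7.68% of all genes). The scaffold Slc9a3r1 had the largest value, 1.77 ± 0.34 (limma, adjusted p = 0.0949), at 1485.2, 2739.9 and 2948.8 in P5 cKO against 841.3, 977.7 and 367.3 in P5 WT. The bicarbonate transporter Slc4a5 (1.09 ± 0.36) and the kinase Wnk4 (-1.05 ± 0.29) did not pass, nor did the bicarbonate cotransporter Slc4a4 (-0.14 ± 0.41).

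Of 19 mitochondrial cell death factors 0 were called (median 0.04), with 3 higher and 0 lower at an unadjusted p under 0.05 (7.68% of all genes), led by the nuclease Endog (0.52 ± 0.19) and the pore regulator Ppif (0.35 ± 0.13). Of 33 genes around FOXO1 0 were called (median -0.04), with 1 higher and 2 lower at an unadjusted p under 0.05. Foxo1 itself stood at 839.6, 766.3 and 811.7 in P5 cKO against 1053.8, 758.4 and 509.3 in P5 WT (0.12 ± 0.22, log2 fold change and SE), with cKO inside the range of WT. The kinase Sgk1 (0.84 ± 0.42) and the regulatory subunit Pik3r1 (-0.70 ± 0.48) had the largest values. At E15.5 no gene of these 7 lists was called by limma, and 2, both lower in cKO, had an unadjusted p under 0.05. Over all tested genes at E15.5, 0.259% were lower and 0.104% higher at that threshold.

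**Figure D5:**
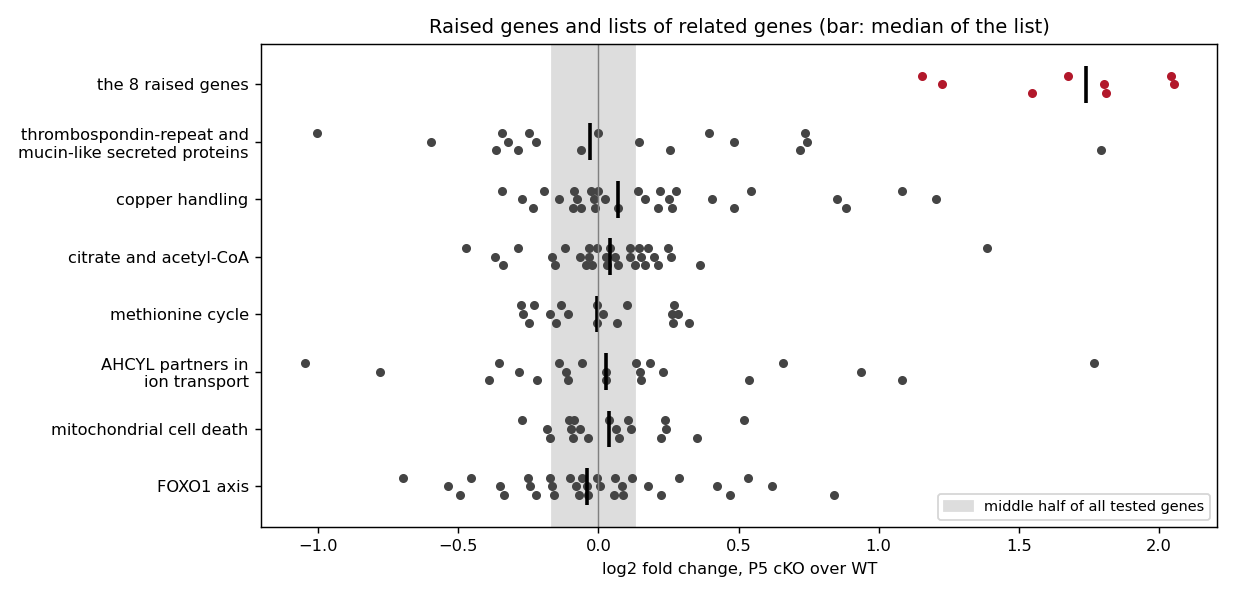
Log2 fold change at P5, cKO over WT (x axis), of the 8 raised genes and of the tested genes of 7 related lists (rows). Each point is a gene, the bar is the median of the list and the grey band spans the quartiles of all tested genes, from -0.17 to 0.13. The list medians lie between -0.04 and 0.07, inside the band, and the 8 raised genes between 1.16 and 2.05.

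The nearest measured gene on each side of each member gave 0 calls in 16 at P5 by limma, with 1 at an unadjusted p under 0.05, a share near the 7.68% of all tested genes. It was Fkbp15, which lies 179 bases from Slc31a1, at 824 ± 77.9 in P5 cKO and 638 ± 143 in P5 WT (SD, n = 3 each), with a log2 fold change of 0.39 ± 0.16 (SE, limma, adjusted p = 0.588). The median over the 16 was 0.09. The highest value, 0.81 ± 0.53 (SE), was that of the myogenic factor Myf6, which lies 265.8 kb from Otogl. Aifm3 lay 1.2 kb from Lztr1, which differed by 0.08 ± 0.08, and 2.2 kb from Crkl, which differed by -0.21 ± 0.29 (log2 fold change and SE).

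The 10 genes whose log2 values over the 12 libraries were most like the mean of the 8 members were Odf3, Fbxo16, Stxbp5l, Rspo4, Efcc1, Kcnh1, P2rx6, Atp13a4, Carlr and Nos1, with Pearson r from 0.961 to 0.994. This describes 12 libraries in which the P5 cKO values stand apart from the rest, and shares the libraries that chose the members. Of these, Odf3, a component of sperm tail fibres, stood at 68.6, 79.1 and 78.0 in P5 cKO against 53.0, 50 and 50 in P5 WT. Kcnh1, a voltage-gated potassium channel, stood at 265.0, 307.7 and 338.8 in P5 cKO against 85.4, 53.2 and 67.8 in P5 WT. Nos1, the neuronal nitric oxide synthase, stood at 215.8, 259.4 and 251.7 in P5 cKO against 110.1, 67.4 and 50 in P5 WT. Stxbp5l, a syntaxin-binding protein of vesicle release, stood at 135.7, 143.8 and 148.4 in P5 cKO and at the floor in each P5 WT and E15.5 library.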

How the data were processed

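RNA of mouse RPE was measured in 12 libraries, 3 in each of 4 groups given by the sample titles. The authors deposited 1 table of signal values: per the submitters' processing notes, TopHat2 2.0.10, HTSeq and mm10 were used, and per the table's name gene counts were quantile-normalised and values under 50 set to 50. In the deposited table all 12 columns held the same sorted values, with 9.87% at the floor, so the column sum of 12618429 says nothing about depth, which is unknown, and no counting interval is given. The sources used here name no annotation release or strand setting.

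The 13523 genes above the floor in at least 3 libraries were fitted as log2(value + 1) with limma 3.58.1 in R 4.3.3, with 1 mean per group over all 12 libraries and moderated variances with a mean-variance trend. Two-sided p-values were adjusted over all 13523 genes by Benjamini-Hochberg, and a gene was called under 0.05. The pseudocount makes a fold change of a low gene smaller than it is. All 8 members passed the filter, Otogl, Aifm3 and Slc13a5 mainly through the P5 cKO libraries. The model was checked on simulated data with changes placed only in genes well above the floor, so the check does not cover genes near it. Group values are mean and SD on the scale of the table.

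The members and lists were chosen with earlier results of these data known. Named genes were the members, their paralogues, about 4 genes per list by call and size, the nearest measured genes, the 10 genes of most like pattern, and the highest lens and muscle markers, of which a part is printed. Of the named genes not covered by that rule, Fh1, Foxo1, Atp7a, Atp7b, Atox1, Slc25a1, Slc4a4, Cdc26, Rgr, Rpe65, Rlbp1 and Ttr were chosen for their role or place after values were seen. GENCODE M21 held 13927 of the 13942 identifiers. Alternatives were other filters, a pseudocount of 50, fits per age, library weights, terms for lens, muscle and photoreceptor signal, the replicate number as a block, and leaving out each library.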

Additional observations from a re-analysis of the deposited data

Results flagged for a closer look

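Among the marker genes listed, 2 RPE markers were called by limma's test of the interaction of genotype and age (0.0592% of all tested genes). Rgr stood at 93.2, 199.2 and 203.5 in P5 cKO against 10706.3, 14597.2 and 6783.8 in P5 WT, and at the floor in all E15.5 libraries (difference of the log2 fold changes -6.02, limma, adjusted p = 0.000666). Ttr stood at 109.9, 89.1 and 85.3 in E15.5 cKO against 1602.3, 1473.3 and 1453.8 in E15.5 WT, and at 37268.3, 68217 and 77449.3 in P5 cKO against 77449.3, 77449.3 and 42122.2 in P5 WT (difference 3.87, limma, adjusted p = 0.00544). Since all libraries hold the same sorted values, a Ttr difference between the P5 libraries that share 77449.3 could not be seen.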

How the results depend on the processing

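The sign of the members' P5 difference is largely fixed by their choice and says nothing of stability; without any 1 library its size lay between 0.97 (Ahcyl2) and 2.29 (Otogl) on the log2 scale. A pseudocount of 50 lowered it by over 1.5 times in Aifm3 (0.76) and Slc13a5 (1.10). At E15.5 alternatives were run for Fcor, Aard, Ahcyl2 and Slc31a1, and none of these 4 was called; the sign of Fcor turned without cKO replicate 1 (-0.018 to 0.188 over the libraries left out). The count of calls at P5, 33, was 2 in the 6 P5 libraries alone, 59 with library weights, 198 with a term for photoreceptor signal, 19 and 4 with the filters of 6 libraries and of 4 times the floor, and 12 to 132 with 1 library left out, highest without cKO replicate 1 and 78 without WT replicate 3. It was 14 without cKO replicate 2, 12 without cKO replicate 3, and 15 or 16 without any 1 E15.5 library. A term for lens signal gave 33 calls, 11 rises and 22 falls in place of 27 and 6, 12 of them shared. At E15.5 the count, 1, was 14 with library weights, 3 with a term for lens signal and 1 to 4 with 1 library left out (4 without E15.5 cKO replicate 3, 3 without P5 WT replicate 3). The count for age, 7753, was 4356 with a term for lens signal and 6911 to 8705 with 1 library left out. The count for the interaction, 8, was 32 with library weights, 5 with a term for lens signal, 2 with the filter of 4 times the floor and 4 to 24 with 1 library left out. The deviations of same-numbered libraries from their group means correlated with 0.783, -0.297 and 0.185 at P5 and -0.019, 0.274 and -0.022 at E15.5. Libraries of unlike number reached 0.706 at P5 (cKO replicate 2 with WT replicate 3). Whether the numbers pair samples cannot be told from these values. The replicate block gave 18 calls at P5. It could not change the log2 differences of the members, since every group holds replicates 1, 2 and 3. The cause of these changes was not tested.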
